A study of Mus musculus with 12 samples.

Results

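Intraepithelial lymphocytes (IEL) sorted from mouse gut and profiled by RNA-seq were compared by the kind of T cell transferred into the host. The phenotype held fixed was whether the sorted cell was labelled CD8αα or not. Hosts given CD4 T cells gave 6 libraries and hosts given CD8αβ T cells gave 6, which is all 12 libraries of the study. The rule was the label of the transferred cell, and it used no measured value. All hosts were Rag2-/- mice, which lack T and B cells of their own but keep innate lymphoid, myeloid and epithelial cells. The transferred cells were T cells from lymph nodes of donors labelled Themis WT, given intravenously, and small intestine was taken 1 week later. All sorts were on TCRβ. After CD4 transfer the sorted cells carried either CD4 (CD4 IEL) or CD8αα (CD8αα from CD4). After CD8αβ transfer they carried either CD8αβ (CD8αβ IEL) or CD8αα (CD8αα from CD8αβ). Each of these 4 groups had 3 libraries. CD4 IEL and CD8αβ IEL are called companion IEL below, because each was sorted beside the CD8αα cells of the same transfer. Every host received only 1 kind of T cell, so the host, the day and the transferred cell cannot be told apart. Fixed phenotype below means only CD8αα or not. Among companion IEL the sorted coreceptor, CD4 or CD8αβ, differs with the transferred cell and cannot be told apart from it either. Nothing in the labels ties replicates to separate animals, and p-values therefore measure only the spread between these libraries.

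IEL sit between the epithelial cells of the gut. Conventional CD4 and CD8αβ T cells that enter this layer can take up the CD8αα homodimer, a coreceptor form typical of the gut, and CD4 cells can lose CD4 as they do so. ThPOK, encoded by Zbtb7b, keeps T cells in the helper lineage, and Runx3 keeps them in the cytotoxic lineage. A cell that has changed its coreceptor may still carry transcripts of the lineage it came from. The comparison by origin describes which transcripts differed with the transferred cell, and it cannot show which of them were retained.

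Coreceptor transcripts followed the sort. Cd4 was at 1583 to 1749 counts scaled to library size (CPM) in CD4 IEL and at 2.56 to 42.3 CPM in the other 9 libraries, and Cd8b1, the CD8β chain, was at 1087 to 1167 CPM in CD8αβ IEL and 2.53 to 20.6 CPM elsewhere. The 6 libraries labelled CD8αα did not carry the transcript levels of conventional T cells. Cd3e, a chain of the T cell receptor complex, was at 3.21 to 22.2 CPM in them and at 403 to 639 CPM in companion IEL. Cd28 was at 0.573 to 3.43 CPM against 301 to 708. Markers of natural killer (NK) and innate lymphoid cells, summed over 18 genes, were at 3151 to 5743 CPM in the libraries labelled CD8αα and at 555 to 1155 in companion IEL. This sum leans on Tyrobp, the highest member with a mean of 998 CPM. Of the 17 members tested, 6 were under 1 CPM in both CD8αα groups. The members Il7r and Eomes ran the other way and were lower in the libraries labelled CD8αα, with levels given below. In 4 of the 6 libraries labelled CD8αα the X-inactivation transcript Xist exceeded the Y-linked transcripts, and in all 6 companion libraries it did not. In CD8αα from CD4 they were numbers 1 and 2, and in CD8αα from CD8αβ numbers 1 and 3, so each origin held 2 of them. In these 4 libraries Xist had 3245 to 4235 counts and the 4 Y-linked genes Ddx3y, Eif2s3y, Kdm5d and Uty together 2 to 9, whereas companion libraries had 0 to 279 and 2166 to 4120. The labels do not give the sex of donors or hosts. Whether the libraries labelled CD8αα hold the transferred T cells or lymphoid cells of the host was not tested. The word origin below follows the labels, and among these libraries it means only the kind of cell that the host had received. In pairs of values joined by against, CD4 transfer comes first. In bulk samples, fewer cells of a type and less RNA per cell cannot be told apart. Library totals ran from 5620257 to 11070734 counts.

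Many genes differed by origin. Of 12622 genes tested, 3137 (24.9%) were called for origin at fixed phenotype by edgeR's quasi-likelihood test at an adjusted p under 0.05, 1347 higher (10.7%) and 1790 lower (14.2%) in CD4 transfer. With library totals alone in place of TMM scaling the split was 2035 higher and 1385 lower, that is 59.5% higher in place of 42.9%, so the balance of directions follows the scaling. The median log2 fold change of all tested genes moved by 0.10 between these scalings. Of the 3137 genes, 3089 (24.5% of those tested) had the same sign in both phenotypes, 1309 higher (10.4%) and 1780 lower (14.1%). The additive fit calls a gene from both phenotypes together, and opposite differences cancel in it. A shared sign among called genes is therefore close to given and is no separate evidence. Of all tested genes, called or not, 68.5% shared a sign. Of the 3089 genes, 442 were also called within CD8αα libraries and 2422 within companion IEL, with 335 counted in both. Within neither phenotype 560 were called.

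The difference was smaller and less often called among CD8αα libraries. Within them 547 genes (4.33%) were called for origin, 236 higher (1.87%) and 311 lower (2.46%) in CD4 transfer. Within companion IEL 3655 (29.0%) were called, 1630 higher (12.9%) and 2025 lower (16.0%). These shares are the ones to set beside the counts of list members called within each phenotype below. Both phenotypes on their own called 335 genes in the same direction (2.65%), 138 higher (1.09%) and 197 lower (1.56%) in CD4 transfer, and 26 in opposite directions (0.206%). Among the 3089 genes, the median absolute log2 fold change was 0.56 in CD8αα libraries and 0.97 in companion IEL, and 2445 genes (79.2%) had the larger value in companion IEL. A test of the difference between phenotypes (interaction) called 323 genes (2.56%), of which 119 were among the 3089. Levels of 779 genes (6.17%) did not overlap between the 6 libraries of each origin, 286 of them higher (2.27%) and 493 lower (3.91%) in CD4 transfer. With 3 libraries against 3, levels did not overlap for 28.9% of genes within CD8αα, 41.5% within companion IEL and 13.6% within both in the same direction. Genes named below by size of change had to show no overlap within either phenotype. Their separation within each phenotype was therefore fixed by that rule and is no result. Without the 4 libraries in which Xist exceeded the Y-linked transcripts, 2362 genes were called at fixed phenotype and 2200 of them had the same sign. That setting leaves 1 CD8αα library per origin, whose spread is assumed to be that of the companion groups, and it called 1 gene within CD8αα, 1 gene within both phenotypes and 13 for interaction.

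**Figure D1:**
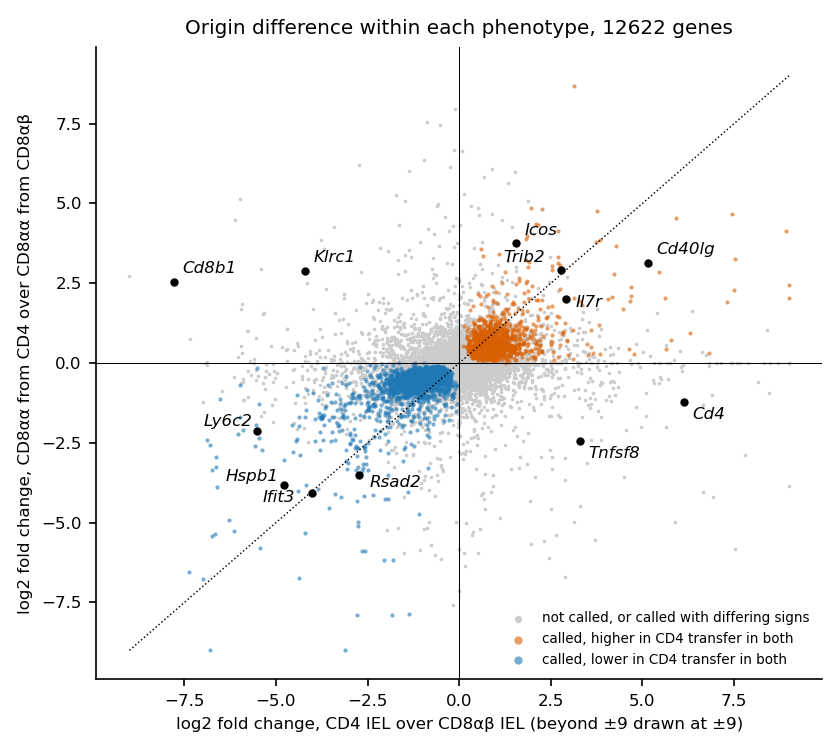
Each point is 1 of 12622 genes, with its log2 fold change of CD4 IEL over CD8αβ IEL on the horizontal axis and of CD8αα from CD4 over CD8αα from CD8αβ on the vertical axis, and the dotted line marks equal change. The 1309 orange and 1780 blue genes are those called with the same sign in both phenotypes, and Cd8b1, Klrc1 and Tnfsf8 lie in the quadrants of opposite sign.

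Interferon-stimulated genes were lower in CD4 transfer in both phenotypes. Interferons signal through the receptor-bound kinases to a complex of transcription factors that binds a short motif, the interferon-stimulated response element, before the genes it switches on. All 44 listed genes were tested, 32 were called lower and 0 higher, and the list median was −1.22 log2 against −0.01 over all tested genes. Over all tested genes 14.2% were called lower and 10.7% higher. Within CD8αα libraries 16 were called lower and within companion IEL 29, with medians of −1.05 and −1.19. Both phenotypes on their own called 13 of them lower. The promoters of the listed genes Ifit1, Ifit3 and Rsad2, and of Cxcl10 outside the list, are shown because they hold the motif and these genes were named by size of change. They are from RefSeq's table for GRCm38.p6, written 5′ to 3′ on the gene's strand, and capitals mark the motif searched, GAAA, then 2 bases of any kind, then GAAA, on either strand.
Ifit1, chr19:34640740-34640858, plus strand: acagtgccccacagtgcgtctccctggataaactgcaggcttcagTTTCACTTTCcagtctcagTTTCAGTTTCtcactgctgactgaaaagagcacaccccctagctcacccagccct
Ifit3, chr19:34583328-34583461, plus strand: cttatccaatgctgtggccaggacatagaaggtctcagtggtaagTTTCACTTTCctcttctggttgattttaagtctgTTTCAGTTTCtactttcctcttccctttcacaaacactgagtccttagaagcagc
Rsad2, chr12:26456518-26456617, minus strand: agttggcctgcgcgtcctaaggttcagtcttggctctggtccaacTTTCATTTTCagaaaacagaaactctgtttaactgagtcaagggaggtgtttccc
Cxcl10, chr5:92349048-92349139, minus strand: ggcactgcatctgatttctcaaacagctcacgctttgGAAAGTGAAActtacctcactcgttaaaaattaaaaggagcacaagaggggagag

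A promoter was found for 32 of the 44 listed genes, and 17 of these (53.1%) held the motif, against 3.99% of all 27025 genes with a promoter and 3.44% of all 32851 promoters, all of the same length. Of the 24 genes called lower that had a promoter, 10 (41.7%) held it, as did 7 of the 8 not called lower. Ifit1 and Ifit3 each held it at 2 places. A match describes letters in the window and not a bound site.

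Ifit3 (ENSMUSG00000074896, chromosome 19 of mm10, 34583531 to 34588731), an antiviral protein with tetratricopeptide repeats, was at 34.9, 17.4 and 11.4 CPM in CD4 IEL and at 154, 272 and 605 CPM in CD8αβ IEL. In the libraries labelled CD8αα it was at 4.78, 3.21 and 4.84 CPM from CD4 and at 10.8, 51.1 and 153 CPM from CD8αβ. The origins did not overlap within either phenotype, a condition for naming it, although replicate 1 of CD8αα from CD8αβ lay below all 3 CD4 IEL libraries. The log2 fold change was −4.04 ± 0.56 (SE) at fixed phenotype (edgeR adjusted p = 0.000627), −4.08 ± 0.84 within CD8αα (adjusted p = 0.0173) and −4.0 ± 0.77 within companion IEL (adjusted p = 0.00228).

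Rsad2 (ENSMUSG00000020641, chromosome 12, 26442753 to 26456452), which encodes the antiviral enzyme viperin, had no overlap between the 6 libraries of each origin. It was at 6.99 to 38.4 CPM in CD4 transfer (median 15) and at 60.4 to 267 CPM in CD8αβ transfer (median 127), a log2 fold change of −3.11 ± 0.49 (edgeR adjusted p = 0.000943). Cxcl10, a chemokine that attracts T cells and was named by size of change outside the list, was at 20.8 to 69.8 CPM (median 37.4) against 79.6 to 621 CPM (median 218), and did not overlap either (−2.72 ± 0.36, edgeR adjusted p = 0.000474). Irf7, the factor that amplifies interferon production and was chosen after its values were seen, held a narrow range of 186 to 227 CPM over the 6 libraries of CD4 transfer. In CD8αβ transfer it ran from 280.3 to 1148 CPM, above all of CD4 transfer (−1.65 ± 0.27, edgeR adjusted p = 0.00109). Mx2, a GTPase that blocks viruses, was at 0.917 to 5.22 CPM against 8.97 to 82.3 CPM, with a log2 fold change of −3.70 ± 0.49 (edgeR adjusted p = 0.00046). The ISG15-specific protease Usp18 and the interferon-inducible Ifi27l2a differed by −3.90 ± 0.56 and −3.97 ± 0.58 on the log2 scale. Reads of Ifit3, Mx2, Ifi27l2a and Gbp10 can be shared with near-identical family members, so their own levels are uncertain. Levels of 7 of the 32 genes did not overlap between the 6 libraries of each origin: Mx2, Rsad2, Bst2, Isg20, Irf7, Oas1a and Psmb8. Of all 3137 called genes 759 had no overlap, counting both directions, so the list did not stand out among called genes by this measure. Of all tested genes, 3.91% were lower in CD4 transfer without overlap.

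The immunoproteasome genes Psmb8 and Psmb9 and the peptide transporter gene Tap1, which load MHC class I, were called with the smaller log2 fold changes of −0.77, −0.76 and −0.38.

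The spread inside CD8αβ transfer was wide and followed the replicate number in both phenotypes. Summed over the 44 genes, levels were 10507, 14523 and 20624 CPM in CD8αβ IEL replicates 1, 2 and 3 and 5834, 8328 and 11724 CPM in CD8αα from CD8αβ. CD4 IEL held 8642, 8341 and 6887 CPM, and CD8αα from CD4 held 4925, 5756 and 5536 CPM. Replicate 1 had the lowest level of its group in 30 of the 32 called genes in CD8αβ IEL and in 31 of 32 in CD8αα from CD8αβ. No such order was shared by the 2 groups of CD4 transfer, where the lowest library was replicate 3 in CD4 IEL for 27 genes and replicate 1 in CD8αα from CD4 for 20. Whether equal numbers mark a shared host is not stated in the labels.

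Heat shock and chaperone genes were also lower in CD4 transfer. These proteins fold other proteins and are induced by heat and other stress through the factor HSF1. Of 22 members tested, 14 were called lower and 1 higher, beside 14.2% and 10.7% of all tested genes. The list median was −0.76 log2. Within CD8αα libraries 11 were called lower and within companion IEL 9, and both phenotypes on their own called 8 lower. In 10 of the 14 genes called lower, the 6 libraries of CD4 transfer lay below all 6 of CD8αβ transfer. Of all 3137 called genes 759 had no overlap, counting both directions, and 3.91% of tested genes were lower without overlap. Summed over the list, levels were 8589 to 16805 CPM in CD4 transfer and 19923 to 32397 CPM in CD8αβ transfer, with no overlap.

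Hspb1, a small heat shock protein, was at 0.109 to 3.90 CPM in CD4 transfer (median 1.58) and at 7.24 to 57.2 CPM in CD8αβ transfer (median 25.8), a log2 fold change of −4.22 ± 0.52 (edgeR adjusted p = 0.000366). Hspa1b (ENSMUSG00000090877, chromosome 17, 34956436 to 34959238), an inducible HSP70, was at 35.2, 57.4 and 123 CPM in CD4 IEL and at 17.9, 25.2 and 51.2 CPM in CD8αα from CD4. CD8αβ IEL held 1263, 263 and 178 CPM and CD8αα from CD8αβ 128, 249.7 and 174 CPM. Every library of CD8αβ transfer lay above every library of CD4 transfer, with the narrowest gap between 123 and 128 CPM (−2.77 ± 0.48, edgeR adjusted p = 0.00161). Within CD8αα alone Hspa1b was not called (−2.55 ± 0.68, edgeR adjusted p = 0.0524). Its near-identical neighbour Hspa1a, chosen after its values were seen, was at 406 to 3329 CPM against 3684 to 7081 CPM, and reads of these 2 genes cannot be told apart with certainty.

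Further members were apart between origins as well. Hsp90aa1, a stress-inducible HSP90, was at 268 to 667 CPM in CD4 transfer and at 1123 to 2192 CPM in CD8αβ transfer (−1.77 ± 0.17, edgeR adjusted p = 0.000124). Its difference was called in both phenotypes, at −1.90 ± 0.24 within CD8αα (edgeR adjusted p = 0.00107) and −1.65 ± 0.24 within companion IEL (adjusted p = 0.000354). Hspa8, the constitutive HSC70, was at 1181 to 3335 CPM against 3466 to 9407 CPM (−1.28 ± 0.22, edgeR adjusted p = 0.00166). Dnajb1, an HSP40 co-chaperone, differed by −2.32 ± 0.32 within CD8αα (edgeR adjusted p = 0.00182) and by −0.83 ± 0.30 within companion IEL, where it was not called (adjusted p = 0.0571). These 3 genes were chosen after their values were seen. Hsf1 itself was at 79.7 to 129 CPM in CD4 transfer and 89.9 to 102 in CD8αβ transfer, ranges that overlap. Pdia4, a chaperone of the endoplasmic reticulum, was the member called higher in CD4 transfer (0.32 ± 0.09, edgeR adjusted p = 0.0211).

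The library order within a group was alike in both phenotypes of CD4 transfer and not in those of CD8αβ transfer. In CD4 transfer, replicate 1 had the lowest level of its group in 11 of the 14 called genes in CD4 IEL and in 12 of 14 in CD8αα from CD4, and replicate 3 the highest in 10 and in 14. In CD8αβ transfer the lowest library was replicate 3 in CD8αβ IEL for 12 genes and replicate 1 in CD8αα from CD8αβ for 13. The heat shock element was searched on either strand as GAA, 2 bases of any kind, TTC, 2 bases of any kind and GAA. A promoter was found for 18 listed genes, and 5 of these (27.8%) held it, namely Hsph1, Hspd1, Hspe1, Dnajb6 and Chordc1. Of all 27025 genes with a promoter, 0.662% held it. Among the listed genes it was in 4 of the 11 called lower and in 1 of the 7 not called lower.

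**Figure D2:**
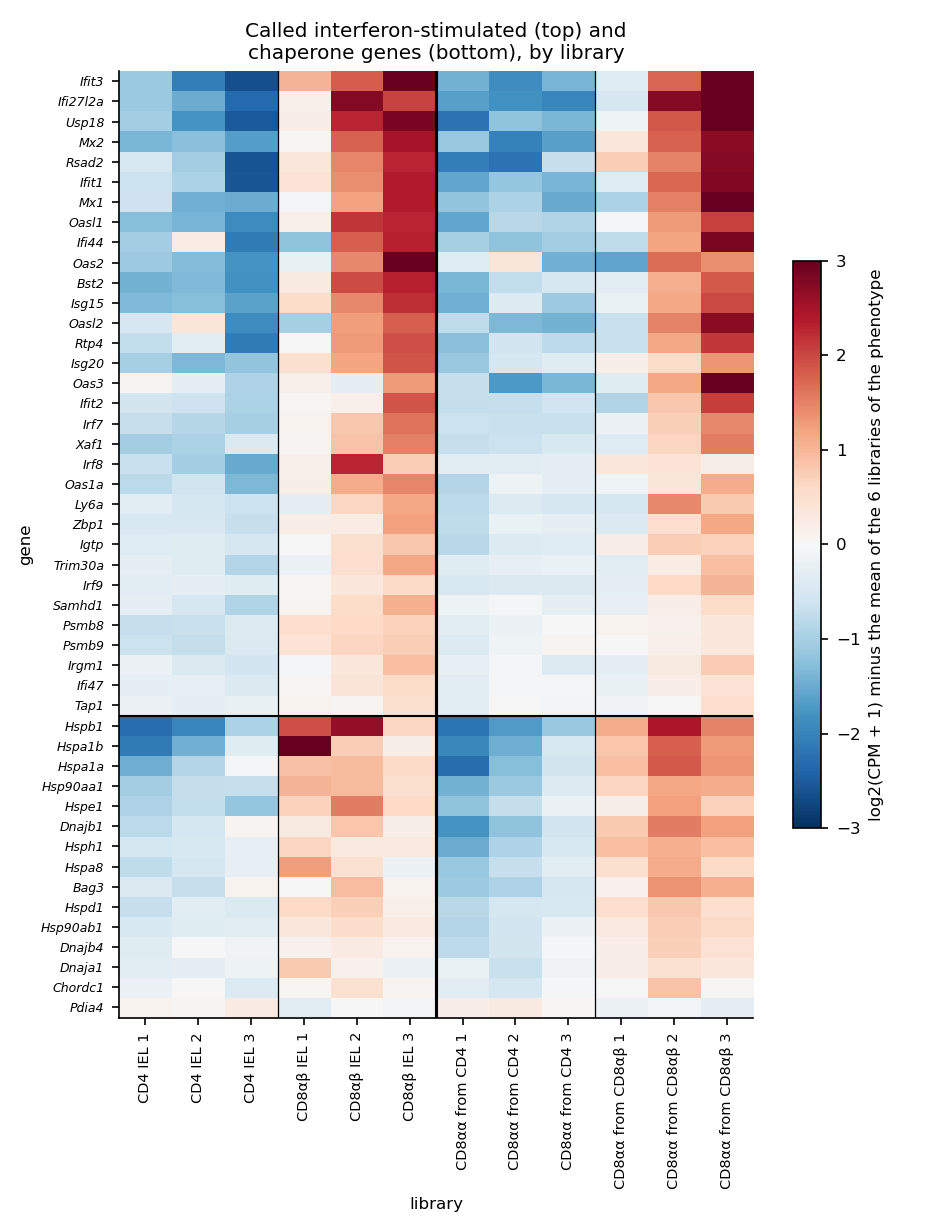
Rows are the 32 interferon-stimulated genes called (top) and the 15 chaperone genes called (bottom), columns are the 12 libraries, and colour is log2(CPM + 1) minus the mean of the 6 libraries of the same phenotype. Libraries of CD4 transfer are mostly blue and those of CD8αβ transfer mostly red in both parts, replicate 1 of each CD8αβ transfer group is near white or blue for many interferon genes, and Pdia4 in the last row runs the other way.

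Genes higher in CD4 transfer included receptors and regulators of helper T cells. Of the 15 listed genes of the CD4 helper lineage, 8 were called higher and 1 lower, beside 10.7% and 14.2% of all tested genes. The list median was 1.33 log2, and 3 of the 15 were called in the same direction in both phenotypes. Within companion IEL 11 were called higher and 1 lower (median 1.55), and within CD8αα libraries 3 higher and 1 lower (median 0.24), where 4 members were under 1 CPM in both groups. The interaction was called for 4 of the 15. Cd4 itself was not called at fixed phenotype (edgeR adjusted p = 0.133), and CD8αα from CD4 held 2.56 to 3.28 CPM. Zbtb7b was at 15.8 to 19.7 CPM in CD8αα from CD4 against 13.7 to 14.6 from CD8αβ, and in companion IEL at 19.6 to 28.2 CPM against 3.60 to 7.90. The origins did not overlap, and the log2 fold change was 1.27 ± 0.34 (edgeR adjusted p = 0.0164), with 0.35 ± 0.29 within CD8αα, which was not called (adjusted p = 0.575). Runx3 was at 325 to 639.5 CPM in all 12 libraries and was not called (0.15 ± 0.11, edgeR adjusted p = 0.336).

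Icos (ENSMUSG00000026009, chromosome 1, 60977927 to 61000320), a costimulatory receptor of activated helper cells, was at 575, 514 and 585 CPM in CD4 IEL and 213, 131 and 229.8 CPM in CD8αβ IEL. In CD8αα libraries it was at 6.49, 10.3 and 11.5 CPM from CD4 and 0.841, 0.744 and 0.460 CPM from CD8αβ. The origins were apart in each phenotype, as the naming rule required, and all CD8αα libraries lay far below all companion libraries. The log2 fold change was 3.75 ± 0.34 within CD8αα (edgeR adjusted p = 0.000128) and 1.55 ± 0.22 within companion IEL (adjusted p = 0.000267), and the interaction was called (adjusted p = 0.0134). Ctla4, the inhibitory counterpart of Cd28 and chosen after its values were seen, was at 695 to 878 CPM against 290.2 to 345 in companion IEL and at 41.8 to 113 against 20.4 to 25.3 in CD8αα libraries (1.5 ± 0.19, edgeR adjusted p = 0.000439).

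Il7r (ENSMUSG00000003882, chromosome 15, 9506161 to 9529876), the receptor for the survival cytokine interleukin 7, was at 613, 457 and 383 CPM in CD4 IEL and 80.7, 45.7 and 68.2 CPM in CD8αβ IEL. CD8αα from CD4 held 9.22, 8.02 and 18.7 CPM and CD8αα from CD8αβ 2.71, 2.76 and 3.33 CPM. Each phenotype separated by origin, a condition for naming it, with log2 fold changes of 2.90 ± 0.29 (edgeR adjusted p = 5.37e-05) and 2.02 ± 0.35 (adjusted p = 0.00693). Il18rap, the accessory chain of the interleukin 18 receptor, was at 246 to 371 against 52.4 to 128 CPM in companion IEL and at 3.93 to 18.2 against 0.115 to 1.28 CPM in CD8αα libraries (2.43 ± 0.44, edgeR adjusted p = 0.00206). Among 27 cytokine receptor genes 10 were called higher and 4 lower, beside 10.7% and 14.2% of all tested genes, so the lower share was near the general one. Il10ra, of the receptor for interleukin 10, was among the lower (−1.73). The TGFβ receptor genes Tgfbr1 and Tgfbr3, chosen after their values were seen, were called in both phenotypes. Tgfbr1, which with its partner passes the TGFβ signal that retains IEL, was at 51.2 to 80.9 against 22.1 to 26.7 CPM in companion IEL and at 117 to 157 against 44.9 to 88.8 CPM in CD8αα libraries (1.25 ± 0.18, edgeR adjusted p = 0.000635).

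Ccr9, the receptor for the gut chemokine CCL25, was at 595 to 686 against 245 to 369 CPM in companion IEL and at 221 to 321 against 111 to 152 CPM in CD8αα libraries. Its log2 fold change was alike in both phenotypes, 1.11 ± 0.18 in companion IEL (edgeR adjusted p = 0.000757) and 1.10 ± 0.18 in CD8αα (adjusted p = 0.00553). Ccl4, the gene of an inflammatory chemokine, ran the other way, at 134 to 312 CPM against 476 to 932 CPM without overlap (−1.51 ± 0.22, edgeR adjusted p = 0.000752). Itgb3, the β3 integrin chain, was at 73.0 to 118 CPM against 12 to 42.3 CPM (1.62 ± 0.24, edgeR adjusted p = 0.000753). Ccr9, Ccl4 and Itgb3 were chosen after their values were seen. Of 24 genes for chemokine receptors and egress, 7 were called higher and 3 lower, beside 10.7% and 14.2% of all tested genes. In both CD8αα groups 10 of the 24 were under 1 CPM.

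Regulators inside the cell differed in both phenotypes as well. Trib2 (ENSMUSG00000020601, chromosome 12, 15791727 to 15816877), a pseudokinase that acts as a scaffold for protein degradation, was at 229, 304 and 292 CPM in CD4 IEL and 35.1, 27.4 and 57.6 CPM in CD8αβ IEL. In CD8αα libraries it was at 17.4, 19.9 and 33.1 CPM from CD4 and 1.5, 5.10 and 2.87 CPM from CD8αβ. The gap between origins was alike on the log2 scale, 2.79 ± 0.35 and 2.90 ± 0.40, and the interaction was not called (edgeR adjusted p = 0.941). Bcl3, an IκB family protein that works with NF-κB in the nucleus, was at 59.8 to 145 CPM in CD4 transfer and 12.2 to 41.7 in CD8αβ transfer (2.16 ± 0.28, edgeR adjusted p = 0.000465). It did not overlap between the 6 libraries of each origin, and its level in CD8αα from CD4 (64.9 to 131 CPM) lay in the range of CD4 IEL (59.8 to 145). Pim2, a survival kinase, was higher in CD8αα libraries than in companion IEL of the same origin, and within each phenotype CD4 transfer was higher. It was at 968, 1857 and 1087 CPM in CD8αα from CD4 against 337, 343 and 354 in CD8αα from CD8αβ, and at 194 to 313 against 84.1 to 99.8 CPM in companion IEL (1.69 ± 0.17, edgeR adjusted p = 0.000126). Dusp5, a nuclear phosphatase of ERK chosen after its values were seen, was at 432 to 639 CPM against 116 to 301 CPM (1.22 ± 0.19, edgeR adjusted p = 0.00093).

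Among 30 transcription factors of T cell identity and memory, 11 were called higher and 6 lower in CD4 transfer. The shares over all tested genes were 10.7% and 14.2%. Zeb2, a zinc finger repressor of transcription that promotes terminal effector differentiation, was at 23.4 to 36.1 against 8.23 to 8.60 CPM in companion IEL and at 5.46 to 7.0 against 0 to 1.5 CPM in CD8αα libraries (2.34 ± 0.40, edgeR adjusted p = 0.00159). Satb1, a chromatin organiser, followed the same order, with 1.88 ± 0.39 within CD8αα (edgeR adjusted p = 0.0182) and 1.02 ± 0.29 within companion IEL (adjusted p = 0.0189). Prdm1, which encodes Blimp-1, was at 233 to 332 CPM in CD4 transfer and 79.9 to 219.9 in CD8αβ transfer (0.87 ± 0.17, edgeR adjusted p = 0.00369). These 3 were chosen after their values were seen. Ahr and Runx1 were called higher at fixed phenotype, but their differences of 2.52 ± 0.26 and 2.22 ± 0.27 within companion IEL exceeded those of 0.69 ± 0.25 and 0.39 ± 0.26 within CD8αα, where neither was called (edgeR adjusted p = 0.148 and 0.453). The remaining genes named by size of change were Nebl, H1f0, Susd2, Ggt5, Klrb1f, Ptpn13, Trat1 and B3galt5, with log2 fold changes of 1.80 to 2.47 at fixed phenotype. Ptpn13 was no longer called without the 4 libraries with Xist above the Y-linked transcripts (edgeR adjusted p = 0.0708). Of these, Nebl, H1f0, Trat1 and Klrb1f were called in both phenotypes on their own, and Trat1, an adaptor of the T cell receptor, was at 25.4 to 51.2 against 7.35 to 11.9 CPM in CD8αα libraries.

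**Figure D3:**
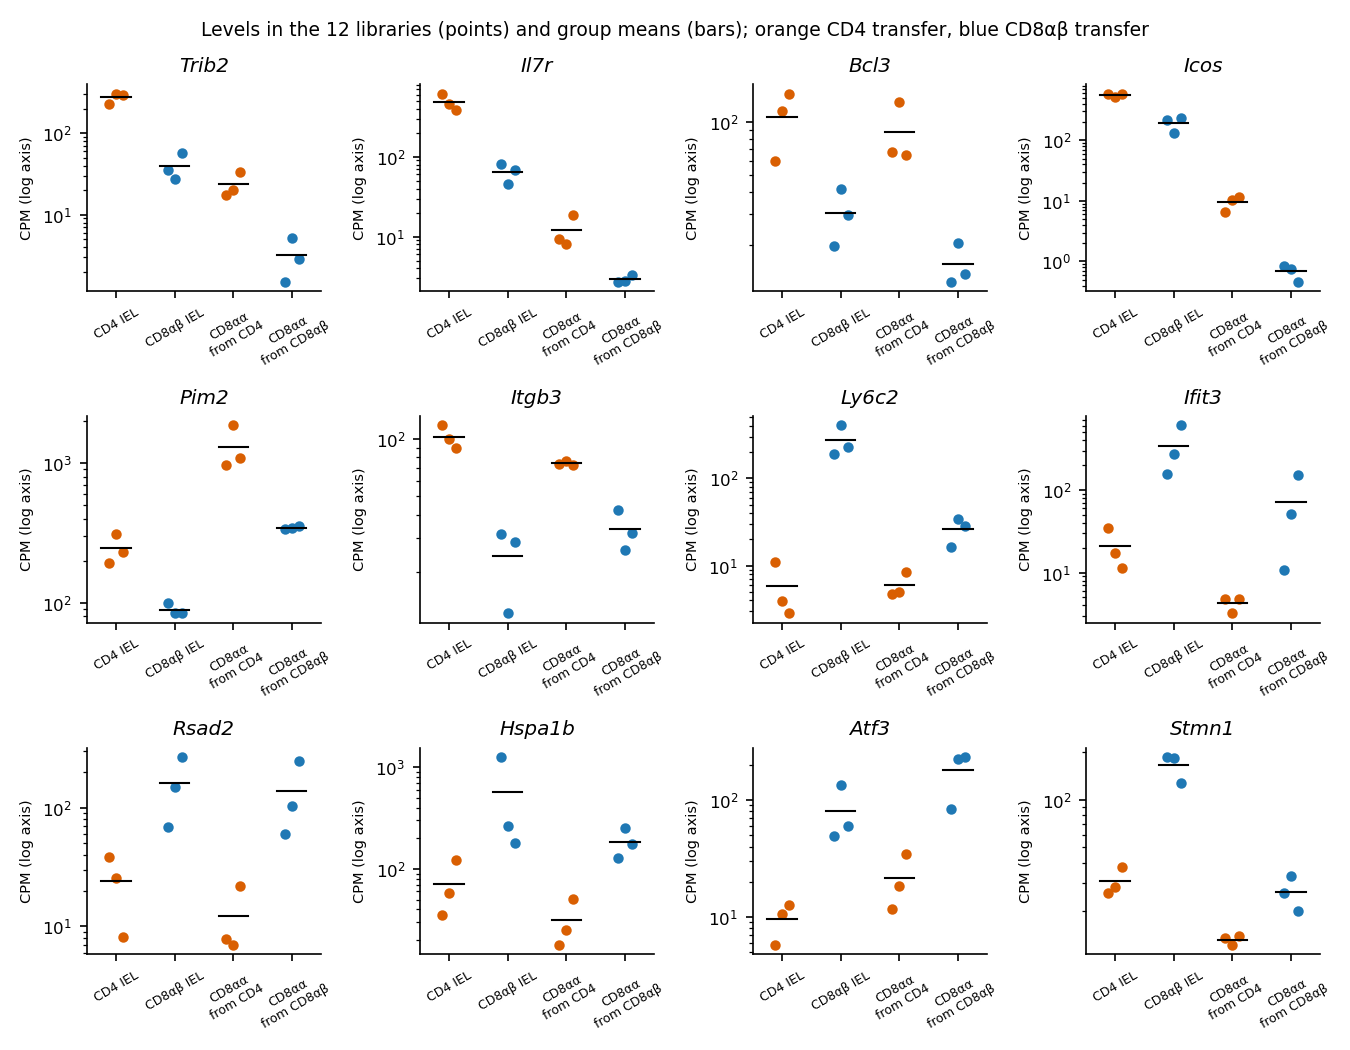
Points are CPM in the 12 libraries on a log axis for 12 genes, bars are group means of 3 libraries, and colour is the transferred cell (orange CD4, blue CD8αβ). Bcl3, Itgb3, Ly6c2, Rsad2, Hspa1b and Atf3 do not overlap between all orange and all blue points, while Trib2, Il7r, Icos, Pim2, Ifit3 and Stmn1 separate within each phenotype only. Separation within each phenotype was a condition for naming Trib2, Il7r, Bcl3, Icos, Ly6c2, Ifit3, Rsad2, Hspa1b and Atf3.

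Other genes were called at fixed phenotype while close to 0 CPM in CD8αα libraries. Of 22 tested genes of the Th17 and helper cytokine program, 9 were called higher in CD4 transfer and 0 lower, with a list median of 1.46 log2. The shares over all tested genes were 10.7% and 14.2%. Within companion IEL 12 were called higher, and within CD8αα libraries 0 were called higher and 3 lower, while 8 members were under 1 CPM in both CD8αα groups. Il17a, which encodes interleukin 17A, was at 117, 259 and 189 CPM in CD4 IEL and 0.416, 0 and 3.29 CPM in CD8αβ IEL (log2 fold change within companion IEL 7.44 ± 0.71, edgeR adjusted p = 5.89e-05). The CD8αα libraries from CD4 held 0.342 to 0.468 CPM and those from CD8αβ 0, and 3 counts correspond to 0.271 to 0.534 CPM of the library totals, so no difference was detectable there. Il22, a cytokine that acts on the epithelial barrier, was at 112, 277 and 251 CPM in CD4 IEL against 0 to 3.79 in CD8αβ IEL, with at most 0.115 in CD8αα libraries. Cd40lg, through which helper cells activate B and dendritic cells, was at 182 to 261 CPM in CD4 IEL, 2.85 to 8.46 in CD8αβ IEL, and at most 0.683 in CD8αα libraries. For these 3 genes the call at fixed phenotype rests on companion IEL. Il22 and the chemokine receptor gene Ccr4 lost it when the 2 within-phenotype differences were averaged with equal weight (edgeR adjusted p = 0.314 and 0.245).

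On the CD8 side, 5 of 15 listed genes of the CD8 lineage were called lower in CD4 transfer and 1 higher. The shares over all tested genes were 14.2% and 10.7%. The list median was −0.75 log2. This list ran in different directions in the 2 phenotypes. Within companion IEL 1 was called higher and 11 lower (median −2.0), within CD8αα libraries 3 higher and 1 lower (median 0.06), and the interaction was called for 9 of the 15. Cd8a is among the 5 lower genes. It was at 45.7 to 48.4 CPM in CD4 IEL, which were sorted on CD4, but at 2433 to 2826 CPM in CD8αα from CD4 and 2748 to 3251 in CD8αα from CD8αβ (−0.16 ± 0.10, edgeR adjusted p = 0.435). Its call at fixed phenotype (edgeR adjusted p = 0.0449) was lost under 10 of 24 alternatives. Nkg7, a cytotoxic granule protein, was at 647 to 741 against 2356 to 2872 CPM in companion IEL and at 1791 to 2468 against 2751 to 3463 CPM in CD8αα libraries. It was called in both phenotypes, and the gap in companion IEL (−1.88 ± 0.14) was larger than in CD8αα (−0.55 ± 0.14, interaction edgeR adjusted p = 0.00246). Eomes, a T-box factor of CD8 and NK cells, was at 54.5 to 59.9 CPM in CD8αβ IEL, 2.25 to 3.78 in CD4 IEL and at most 0.748 in CD8αα libraries.

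Ly6c2 (ENSMUSG00000022584, chromosome 15, 75108160 to 75111684), a surface marker of effector and memory CD8 cells, was at 10.9, 3.91 and 2.85 CPM in CD4 IEL and 193, 405 and 229 CPM in CD8αβ IEL. In CD8αα libraries it was at 4.78, 5.04 and 8.43 CPM from CD4 and 16.5, 33.9 and 28.6 CPM from CD8αβ. All libraries of CD4 transfer lay below all of CD8αβ transfer, and the log2 fold change was −5.51 ± 0.49 within companion IEL (edgeR adjusted p = 2.15e-05) and −2.11 ± 0.46 within CD8αα (adjusted p = 0.0211). Its close relative Ly6c1 could share its reads. Cd27, a costimulatory receptor chosen after its values were seen, was at 28.6 to 77.1 CPM in CD4 transfer and 91.2 to 329 CPM in CD8αβ transfer (−1.87 ± 0.38, edgeR adjusted p = 0.00376). The chemokine gene Xcl1, also chosen after its values were seen, was at 10.8 to 22.2 against 58.9 to 166 CPM in companion IEL and at 1.54 to 2.96 against 9.25 to 20.8 CPM in CD8αα libraries (−2.65 ± 0.32, edgeR adjusted p = 0.000333). Ctla2a, which encodes a cathepsin inhibitor, was at 13.6 to 24.1 against 73.1 to 138 CPM and at 0.854 to 1.40 against 8.5 to 19.3 CPM (−2.79 ± 0.28, edgeR adjusted p = 0.000126).

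Genes induced within minutes of receptor signalling or stress differed between the phenotypes. Of 36 tested immediate early and feedback genes, 5 were called higher and 9 lower at fixed phenotype. Over all tested genes these shares were 10.7% and 14.2%, so the higher calls were near the general share. Within CD8αα libraries 2 were called higher and 10 lower (median −0.50), within companion IEL 11 higher and 4 lower (median 0.32), and the interaction was called for 9. Atf3, a stress-induced factor, was at 5.78 to 34.3 CPM in CD4 transfer and 48.8 to 233 in CD8αβ transfer, without overlap. Its difference was alike in both phenotypes (−3.07 ± 0.51 and −3.08 ± 0.52, edgeR adjusted p = 0.00537 and 0.000951). Nr4a2, an orphan nuclear receptor, was at 295 to 432 CPM against 551 to 926 CPM (−1.07 ± 0.15, edgeR adjusted p = 0.000635). Its relative Nr4a1 differed by −0.27 ± 0.13 in companion IEL, which was not called (edgeR adjusted p = 0.137), and by −1.79 ± 0.13 in CD8αα libraries, at 250.5 to 273 against 853 to 986 CPM (adjusted p = 4.71e-05). At fixed phenotype Nr4a1 was not called without the 4 libraries with Xist above the Y-linked transcripts (edgeR adjusted p = 0.106). Nr4a1 and Nr4a2 were chosen after their values were seen. The survival gene Bcl2 and its antagonist Bcl2l11, which encodes BIM, were both lower in CD4 transfer, by −0.80 ± 0.13 and −1.0 ± 0.15 on the log2 scale (edgeR adjusted p = 0.00103 and 0.000649).

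Cell cycle genes were lower in CD4 transfer. Of 44 tested, 34 were called lower and 0 higher, beside 14.2% and 10.7% of all tested genes. The list median was −0.81 log2. Within companion IEL 37 were called lower and within CD8αα libraries 4, with medians of −1.10 and −0.39, and all 4 were also called in companion IEL. The interaction was called for 6 of the 44. Summed levels were 3704 to 4430.4 against 7465 to 8541 CPM in companion IEL and 1629.6 to 1869 against 2054 to 2347 CPM in CD8αα libraries. The origins did not overlap in either phenotype. Stmn1, which destabilises microtubules, was at 25.8 to 37.9 against 127 to 186 CPM in companion IEL and at 12.1 to 13.7 against 19.9 to 33.0 CPM in CD8αα libraries (−1.75 ± 0.26, edgeR adjusted p = 0.000687). Cdc20, which activates the anaphase-promoting complex, was at 38.8 to 63.9 CPM against at least 129 CPM and at 8.03 to 12.5 against 21.0 to 28.3 CPM (−1.41 ± 0.18, edgeR adjusted p = 0.000439). The proliferation marker Mki67 was not called at fixed phenotype (−0.24 ± 0.13, edgeR adjusted p = 0.192), and its levels of 37.6 to 50.9 and 38.5 to 49.3 CPM overlapped in CD8αα libraries.

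**Figure D4:**
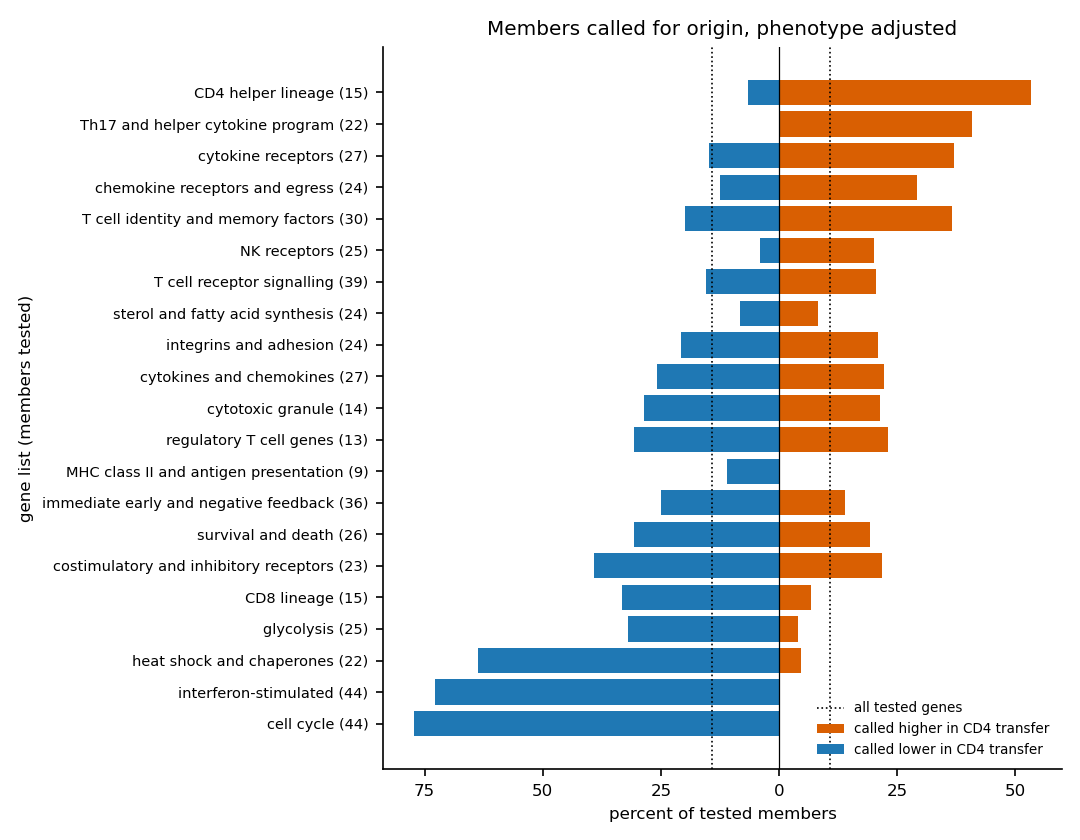
Bars give the percent of tested members of each gene list called higher (right) and lower (left) in CD4 transfer, with the number tested in brackets, and dotted lines mark the 10.7% and 14.2% of all tested genes. The cell cycle, interferon-stimulated and chaperone lists reach far past the left line, and the CD4 helper and Th17 lists past the right line.

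The other lists held calls in both directions. Over all tested genes 10.7% were called higher and 14.2% lower, and the T cell receptor signalling genes called lower were near that share. T cell receptor signalling had 8 higher and 6 lower of 39, costimulatory and inhibitory receptors 5 and 9 of 23, integrins and adhesion 5 and 5 of 24, cytokines and chemokines 6 and 7 of 27, cytotoxic granule genes 3 and 4 of 14, survival and death genes 5 and 8 of 26, and regulatory T cell genes 3 and 4 of 13. Glycolysis genes had 1 higher and 8 lower of 25, with a median of −0.55 log2, among them Aldoa, Tpi1, Eno1 and Ldha of the pathway itself. Within companion IEL 3 were called higher and 9 lower, and within CD8αα libraries 0 higher and 2 lower. Both phenotypes on their own called 0 of the 25 in the same direction. NK receptor genes had 5 higher and 1 lower of 25 at fixed phenotype, but 7 higher and 0 lower within CD8αα libraries (median 0.98) and 4 higher and 8 lower within companion IEL (median −0.13), with 9 called for interaction. Klra7 and Klra3, of the Ly49 family whose members share reads, were called through the CD8αα libraries. Klra7 was at 71.7, 52.0 and 117 CPM in CD8αα from CD4 and 8.13, 6.38 and 8.85 CPM in CD8αα from CD8αβ (3.36 ± 0.58, edgeR adjusted p = 0.00694), and at most 1.70 CPM in companion IEL. At fixed phenotype it was not called without the 4 libraries with Xist above the Y-linked transcripts (edgeR adjusted p = 0.179).

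Some markers of other cells were called for origin, beside 10.7% of all tested genes called higher and 14.2% called lower. Of 24 epithelial markers tested, 7 were called lower in CD4 transfer and 0 higher, and the summed level of all 27 in the table was 139 to 321 against 391 to 1206 CPM in companion IEL and 871 to 1158 against 791 to 1502 CPM in CD8αα libraries. Epcam was at 1.95 to 7.52, 13.9 to 52.0, 95.5 to 106 and 183 to 232 CPM in the same order. Of 14 myeloid markers tested, 1 was called higher and 2 lower, close to the shares over all genes. All 20 in the table summed to 149 to 227, 275 to 416, 1120 to 1344 and 762 to 916 CPM in that order, and S100a8 and S100a9 had 0 reads in all libraries. The B cell genes Pax5 and Ebf1 also had 0 reads. By mean level, Cdh1 led the epithelial markers (179 CPM) and Itgax the myeloid markers (368 CPM), so these sums lean on single genes. Of 17 NK cell and innate lymphoid markers tested, 5 were called higher and 1 lower, with a median of 1.54 log2. Within companion IEL 9 were called higher and 2 lower, at summed levels of 1027 to 1155 against 555 to 692 CPM, and within CD8αα libraries 1 was called higher and 0 lower, at 3151 to 3766 against 3389 to 5743 CPM. Of 7 γδ T cell markers 2 were called higher and 0 lower. Of 9 genes of MHC class II and antigen presentation 1 was called lower at fixed phenotype, while within companion IEL 6 were called lower and within CD8αα libraries 2 higher. The part of other cells in the interferon, chaperone and cell cycle results was not tested.

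Some genes differed by origin in opposite directions in the 2 phenotypes, and the additive fit called none of the 6 named. Klrc1, which encodes the inhibitory receptor NKG2A, was at 9.53 to 15.8 against 153 to 347 CPM in companion IEL, but at 23.4 to 35.6 CPM in CD8αα from CD4 and 2.34 to 4.60 in CD8αα from CD8αβ. The log2 fold changes were −4.20 ± 0.34 and 2.89 ± 0.35 (edgeR adjusted p = 9.05e-06 and 0.000795). Gzmk, a granzyme gene, ran the same way, at −2.0 ± 0.22 in companion IEL and 1.68 ± 0.22 in CD8αα libraries. Cd8b1 was higher in CD8αα from CD4 (15.4 to 20.6 CPM) than in CD8αα from CD8αβ (2.53 to 3.46 CPM), against the order in companion IEL on which the cells were sorted. Maf, Tnfsf8 and Tgfb3 had the reverse pattern. The TNF family ligand gene Tnfsf8 was at 74.0 to 137 against 7.82 to 14.3 CPM in companion IEL and at 10.2 to 30.6 against 115 to 147 CPM in CD8αα libraries (3.31 ± 0.39 and −2.44 ± 0.37, edgeR adjusted p = 0.000106 and 0.00353).

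Transcript length moved with origin. The longest annotated transcript had a median of 4913 bases among genes called higher in CD4 transfer, 1939 bases among genes called lower and 3200 bases over all tested genes. With genes in 5 equal groups by length, 60 of the shortest were called higher and 820 lower, and of the longest 635 were called higher and 87 lower. Median log2 fold changes from the shortest to the longest group went from −0.69 to 0.41 in companion IEL and from −0.27 to 0.21 in CD8αα libraries. With an offset that removes the dependence on length and GC content from each library, an alternative chosen after seeing the data, 2191 genes were called (17.4%), 1000 higher (7.92%) and 1191 lower (9.44%). Of these, 1797 were also called without it and with the same sign, which is 57.3% of the calls without and 82.0% of those with the offset. Interferon-stimulated genes had a median length of 3122 bases, and 33 were called lower with the offset. Chaperone genes had 14 called lower and 3 higher, and cell cycle genes 29 lower. Other lists moved more. T cell identity and memory factors, with a median length of 4416 bases, had 8 called higher and 3 lower in place of 11 and 6, and their median went from 0.26 to 0.11 log2. The median of cytokine receptor genes went from 0.43 to 0.14 log2, and CD8 lineage genes called lower went from 5 to 2. Glycolysis genes called lower went from 8 to 5, and their median from −0.55 to −0.31 log2. Among the genes described above, Trib2 (2.75), Il7r (2.54), Icos (2.22), Bcl3 (2.25), Ifit3 (−3.65), Hsp90aa1 (−1.72) and Atf3 (−2.77) kept log2 fold changes close to those without it. Other named genes lost their call with the offset, namely Cd8a, Cd5, Cd6, Elovl6 and Cd79b (edgeR adjusted p = 0.0612, 0.0587, 0.0691, 0.0639 and 0.131). The part of transcript length in the other results was not tested beyond this offset.

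**Figure D5:**
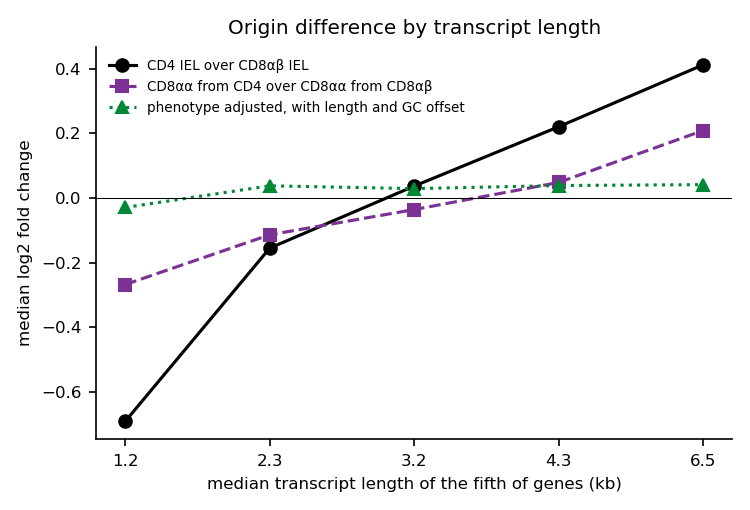
Lines join the median log2 fold change of 5 equal groups of genes ordered by transcript length, for companion IEL (black), CD8αα libraries (purple) and the fit at fixed phenotype with a length and GC offset (green). Both uncorrected lines climb from below 0 for short genes to above 0 for long genes, more steeply in companion IEL (−0.69 to 0.41) than in CD8αα libraries (−0.27 to 0.21), and the offset line stays near 0.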

How the data were processed

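RNA-seq was made from 12 libraries of sorted IEL. The authors deposited whole-number read counts per gene, not normalised. Alignment to mm10 used HISAT2 2.1.0, per the submitters' processing notes. The sources used here give no counting program, annotation or strand, so overlapping, antisense and near-identical genes are uncertain. Of 25965 rows, 66 that shared a symbol with a larger row (0.0202% of reads) were left out. Genes were filtered with filterByExpr (minimum count 10, minimum total 15), scaled by TMM and tested with edgeR 4.0.16 in R 4.3.3, quasi-likelihood, two-sided, Benjamini-Hochberg over 12622 genes. The main model held phenotype and origin, and a model of 4 group means gave the tests within phenotypes and the interaction. Levels are CPM over TMM-scaled totals, and SE is the log2 fold change over the root of F. The test was checked on simulated counts. DESeq2 1.42.0 and limma 3.58.1 served as alternatives. A count of 0 allows up to 3 counts, for counting error only.

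The members and the 28 gene lists were chosen with earlier results of these data known. Genes were named by rule: the coreceptors Cd4, Cd8a and Cd8b1, the factors Zbtb7b and Runx3, and Themis, then the 15 largest differences in each direction among called genes with the same sign in both phenotypes, no overlap within either and a mean above the median gene (29.3 CPM) in the higher origin. Predicted genes, small RNAs, receptor and immunoglobulin segments and sex-linked genes were left out of that rule. Up to 2 called members of each list and 6 genes of opposite sign were added. Members of lists named beyond these, and Cd3e, Cd28, Hsf1 and Mki67, were chosen after their values were seen.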

Additional observations from a re-analysis of the deposited data

Results flagged for a closer look

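For 20 of 104 named genes the difference by origin was itself different between the phenotypes, by the interaction test of edgeR (adjusted p under 0.05). The test called 2.56% of all tested genes, but that share cannot be compared with the named genes. Cd8b1, Klrc1, Gzmk, Tnfsf8, Maf and Tgfb3 were named for their low interaction p, and others were chosen after their values were seen. Values are the log2 fold change by origin within CD8αα minus that within companion IEL. Sorting on coreceptors bears on Cd8b1 (10.32), Cd8a (5.352) and Cd4 (−7.342). Genes with opposite signs in the 2 phenotypes were Klrc1 (7.092), Gzmk (3.684), Tnfsf8 (−5.75), Maf (−5.278) and Tgfb3 (−3.361). Among genes of 1 sign higher in CD4 transfer, the difference was larger within CD8αα for Ptpn13 (2.983) and Icos (2.204), and larger within companion IEL for Ggt5 (−3.075), Zbtb7b (−1.921), Klrb1f (−1.883), Runx1 (−1.834) and Ahr (−1.825). Among genes lower in CD4 transfer, it was larger within companion IEL for Ly6c2 (3.394), Cd27 (2.399), Stmn1 (1.439) and Nkg7 (1.328), and larger within CD8αα for Nr4a1 (−1.518).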

How the results depend on the processing

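Of 95 named genes called at fixed phenotype, 80 remained called with the same sign under all alternatives that could be fitted, up to 24 a gene, and no called gene turned its sign. Among the 15 that lost the call in at least 1, Cd5 lost it in 11 of 24, Cd8a in 10 of 24 and Kcnk1 in 8 of 23. Calls at fixed phenotype ranged from 2191 with the length and GC offset to 3807 with DESeq2's Wald test. That test called 1036 genes within CD8αα, 652 within both phenotypes and 806 for interaction. Without the 4 libraries with Xist above Y-linked transcripts these were 1, 1 and 13, with fewer samples. limma voom called 230 genes for interaction, and 516 with the number within origin as a random block, while calls at fixed phenotype were 3522 and 3431. The cause of these differences was not tested. Leaving out 1 library at a time gave 2246 to 3351 calls at fixed phenotype, 2214 to 3276 with the same sign, 166 to 714 within CD8αα, 2649 to 3764 within companion IEL, 93 to 382 within both and 147 to 368 for interaction. Within CD8αα it left 166 and 192 without replicates 1 and 2 of CD8αα from CD4, and 181 and 182 without replicates 2 and 3 of CD8αα from CD8αβ. Calls within both were 93, 117, 109 and 107 without the same libraries and 204 without CD4 IEL replicate 2. Interaction calls were 200 when CD4 IEL replicate 2 was left out, 161 and 147 for replicates 2 and 3 of CD8αα from CD4, and 156 and 175 for replicates 1 and 3 of CD8αα from CD8αβ. Deviations from group means correlated at −0.07 to 0.09 between libraries of different origin that share a replicate number. With 3 libraries a group, values this small cannot decide whether the numbers pair the groups compared. Within CD4 transfer, same-numbered libraries correlated at −0.0156, 0.0370 and 0.0602. Within CD8αβ transfer, same-numbered libraries correlated at 0.205, 0.326 and 0.0978, so its 6 libraries may not be independent. With the replicate number as a block, 3062 genes were called at fixed phenotype, 3034 with the same sign, 663 within CD8αα, 3814 within companion IEL, 433 within both and 356 for interaction. Across alternatives, interferon-stimulated genes called lower numbered 28 to 34, chaperone genes 11 to 14 and cell cycle genes 23 to 36. The 3 libraries a group limit precision, above all within CD8αα.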
